A study of Arabidopsis thaliana and Zea mays with 12 samples.

Results

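The Aux/IAA proteins and the auxin response factors (ARFs) are the 2 main protein families through which the plant hormone auxin acts on transcription. The 44 genes described here were chosen by name, as the rows IAA1 to IAA20, IAA26 to IAA34, ARF1 to ARF11 and ARF16 to ARF19 of a table of 27411 Arabidopsis thaliana genes. They comprise 29 Aux/IAA genes and 15 ARF genes, and the rule uses names alone and no expression value. ARF proteins bind short DNA elements in front of auxin-regulated genes. Aux/IAA proteins bind ARFs and bring in TOPLESS corepressors, which keeps those genes off. Auxin joins an Aux/IAA to an F-box receptor of the TIR1/AFB group through a short stretch of the Aux/IAA called the degron, and the repressor is then tagged with ubiquitin and degraded. ARFs with a glutamine-rich middle region (ARF5, ARF6, ARF7, ARF8 and ARF19) activate transcription and are called activator ARFs here, while most of the other ARFs repress it in transient assays.

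The series maps the DNA base N4-acetyldeoxycytosine in plant genomes and holds 12 samples, of which the 2 RNA-seq replicates of wild-type plants carry the values used here. The RNA came from leaves of untreated Col-0 plants, the standard laboratory accession, 3 weeks old and kept at 22 °C, and no mutant or treated RNA was compared. All values are thus from 1 condition, and each gene is described by both replicates or by their mean and SD (n = 2), with no test between conditions. The other 10 samples were not analysed here. The unit is FPKM, the fragments of a gene scaled by the length of its exons and by the size of the library. This scaling did not make levels independent of length here. Genes within 10% of 1355 bases had a median of 2.21 FPKM, and those within 10% of 2998 bases had one of 0.566.

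In both libraries the FPKM values checked were whole multiples of a fixed step once multiplied by a length that was searched for each gene. The step corresponded to 93100036 counted reads in replicate 1 and 105573623 in replicate 2. Of 1006 genes above 1 FPKM that were checked, all 1006 gave whole reads in both replicates at some length, against 7 with a shifted step for replicate 2. At the annotated length of genes with 1 transcript, 22.9% of the values whose product with that length was above 0 and under 1200 were whole multiples within 0.001 of a read (973 of 4256 in replicate 1 and 968 of 4225 in replicate 2), so the lengths the authors used are not known for most genes. Leaf marker genes stood high, with 6 of 6 above 1 and a lowest mean of 383 FPKM for Rubisco activase. Of the 17 root, flower, seed and pollen markers, the root myrosinase gene PYK10 was at 7.02 and 7.98 FPKM, and the highest mean among the others was 0.522 FPKM. Whole leaves hold several cell types, and fewer cells of a type cannot be told apart from less RNA per cell.

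Aux/IAA levels divided along the core of the degron, a glycine, a tryptophan and a pair of prolines, searched in frame as any glycine codon, the tryptophan codon TGG and any proline codon in each of the next 2 places. These 4 codons were found in 23 of the 29 Aux/IAA coding sequences and in 34 of 26641 coding sequences of the genome (0.128%), with 1 model per gene. The core began between residue 51 and residue 186. A valine preceded it in all 23 proteins, and the residue after it was valine in 17, isoleucine in 5 and leucine in 1, which is IAA10. The 6 genes without it were IAA20, IAA30, IAA31, IAA32, IAA33 and IAA34. The stretches of 9 genes are shown because they span the range of levels, the 5 highest genes first, then IAA12, IAA10 with its leucine, and the 2 genes that carry the core at under 1 FPKM. They are read 5′ to 3′ on the coding strand of the RefSeq assembly TAIR10.1, with the 12 core bases in capitals.
IAA9 (chr5:26255104-26255133, + strand): caaattgtcGGTTGGCCTCCAgtgagatcc
IAA8 (chr2:9637725-9637754, + strand): caggttgttGGTTGGCCTCCAatcagatca
IAA7 (chr3:8195568-8195597, + strand): caagtggtgGGATGGCCACCTgtgaggaac
IAA16 (chr3:1289730-1289759, - strand): caagttgtgGGATGGCCACCGgtacgatct
IAA17 (chr1:1136938-1136967, + strand): caagttgtgGGATGGCCACCGgtgagatca
IAA12 (chr1:1241058-1241087, + strand): caagtggtaGGATGGCCACCAattgggtta
IAA10 (chr1:1060328-1060357, + strand): gttgctgtaGGTTGGCCGCCTctacggact
IAA6 (chr1:19673323-19673352, - strand): caagcggtgGGATGGCCACCTgtgtgttct
IAA15 (chr1:30222374-30222403, - strand): cagttggtgGGCTGGCCGCCGgtagcgaca

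Aux/IAA transcripts covered a wide range, between 0.0617 and 119 FPKM (means of 2 replicates). Of the 29 genes, 21 (72.4%) were above 1 FPKM and 17 (58.6%) above 10, where the shares among all genes of the table were 47.7% and 19.6%. Among genes in the same range of transcript length, 759 to 2025 bases, the shares were 58.3% and 27.6%. The family median was 12.1 FPKM, with 13.1 in replicate 1 and 11.1 in replicate 2. The expression groups of all genes put 18 Aux/IAA genes in the top 25%, 3 in the 25-50% group and 8 in the 50-75% group.

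IAA9 and IAA8 led the family. IAA9 (AT5G65670), whose tomato counterpart shapes leaves and fruit set, was at 126 and 113 FPKM, and IAA8 (AT2G22670) at 117 and 94.3. The replicate ranges of these 2 genes overlapped, so their order was within the spread. IAA7 (AT3G23050), also known as AXR2, whose stabilized form blocks auxin responses throughout the plant, followed at 65.9 and 63.9. IAA16 (AT3G04730) was at 48.2 and 42.5, and IAA17 (AT1G04250), also called AXR3, was at 41.9 and 38.0. The replicate ranges of these last 3 overlapped none of their neighbours' ranges in the order. IAA9, IAA8 and IAA7 together made up 49.4% of the summed FPKM of the family in replicate 1 and 49.3% in replicate 2, and the first 5 genes made up 63.8% and 63.9%.

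Below these 5 genes came a dense group of 13 genes with means between 9.47 and 23.9 FPKM. IAA18 was at 25.7 and 22.2 FPKM. IAA3, or SHY2, which restrains root meristem size, was at 26.8 and 20.8. IAA13 was at 19.5 and 17.6, and IAA4 was at 18.8 and 15.2. IAA12, or BODENLOS, the partner of ARF5 in forming the embryonic root, was at 17.0 and 15.7. The others of this group were IAA19, IAA14, IAA27, IAA29, IAA26, IAA2, IAA5 and IAA28, the lowest at 9.47 ± 0.669 FPKM (SD, n = 2). Of the 28 pairs of neighbours in the order of the whole family, 17 had overlapping replicate ranges, most of them in this group and at the bottom. IAA1, IAA10 and IAA11 followed with means of 4.04, 1.86 and 1.69 FPKM.

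The 8 genes at or below 1 FPKM were IAA6, IAA15 and the 6 genes without the degron core. With the core, 21 of 23 genes were above 1 FPKM, against 0 of 6 without it, in each replicate as in the mean. The median was 15.4 FPKM with the core (16.1 in replicate 1 and 14.6 in replicate 2), against 0.124 without it (0.132 and 0.0975). The difference of medians on the log2(FPKM + 1) scale was 3.92 in replicate 1 and 3.83 in replicate 2. The ranges overlapped through IAA6 and IAA15, which have the core. Transcripts had a median length of 1358 bases with the core and 942 without it. Set against genes within 10% of each gene's transcript length, the genes with the core lay at a median percentile of 79.5, and those without it at 32.3, with a highest percentile of 43.2. No test was made, since the split was noted after the levels were known. Without the genes that overlap another annotated gene, the counts were 14 of 16 with the core and 0 of 4 without it.

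Few reads stood behind the lowest genes. IAA33 (AT5G57420), which also lacks a leucine motif of the kind that binds TOPLESS proteins, found in the other 28 members, was at 0.0393 FPKM from 2 reads in replicate 1 and at 0.0866 from 5 reads in replicate 2. The motif, 3 leucines at alternate positions, occurs in 27.0% of all proteins. IAA20 had 4 reads in each library, at 0.0656 and 0.0578 FPKM. IAA31 had 10 and 4 reads, which gave 0.129 and 0.0454 FPKM, with exact 95% Poisson intervals of 0.0617 to 0.237 and of 0.0124 to 0.116. Such intervals cover counting error only, and reads of a pair or from PCR copies are not independent. IAA15 stood at 0.179 and 0.0526 FPKM, a ratio of 3 reads to 1 whose multiple the values do not fix, and at the multiple nearest to its annotated lengths these are 15 and 5 reads. IAA32 was at 0.234 and 0.109 FPKM, and IAA34 at 0.135 and 0.187, so the order of this pair turned between replicates. IAA30, at 0.823 and 0.687 FPKM from 56 and 53 reads, exceeded every value of the other 5 genes without the core.

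**Figure D1:**
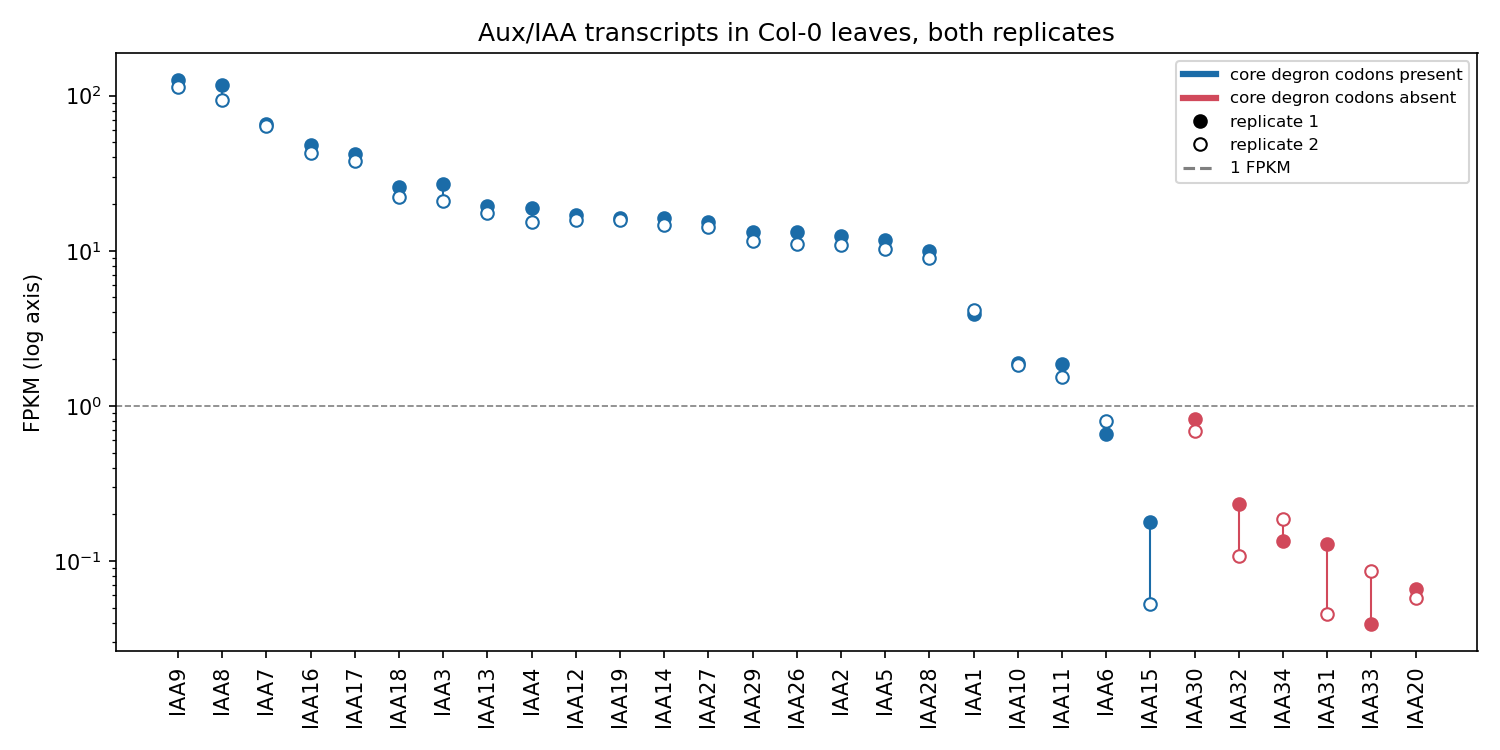
FPKM of each Aux/IAA gene on a log axis, filled points for replicate 1 and open points for replicate 2, with genes carrying the degron core codons on the left and those without on the right, each set ordered by mean. The 6 genes without the core lie below the dashed line at 1 FPKM, with IAA30 the highest of them at a mean of 0.755, while 21 of the 23 with the core lie above it.

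ARF transcripts were lower and less spread. The 15 genes lay between 0.165 and 6.25 FPKM (means of 2 replicates), with a median of 1.79 (1.85 in replicate 1 and 1.73 in replicate 2). Of them, 10 (66.7%) were above 1 FPKM, against 36.7% of the genes in the same range of transcript length, 2367 to 4429 bases, and 47.7% of all genes. None of the 15 was above 10 FPKM, a level reached by 4.85% of the genes in that length range. The name rule leaves out 8 other ARFs, with 0 above 1 FPKM, and these shares and the median do not cover them. ARF3 (AT2G33860), or ETTIN, a regulator of the lower leaf side and of the carpel, was highest at 6.21 and 6.29 FPKM and was the only ARF in the top 25% of genes. ARF17 (AT1G77850), which acts in pollen wall formation and adventitious rooting, was at 6.31 and 5.38 FPKM. The ranges of these 2 genes overlapped. ARF6, ARF10 and ARF2 completed the 5 highest genes. ARF10, which acts with ARF16 in the root cap, was at 3.63 and 3.43 FPKM, and ARF2, a repressor of organ growth and a promoter of senescence, was at 3.34 and 3.49. The 5 highest ARFs made up 64.6% of the summed FPKM of the family in each replicate.

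Aux/IAA genes exceeded ARF genes in median and in sum. The summed FPKM was 624 for the Aux/IAA family and 35.9 for the ARF family in replicate 1, and 551 and 34.6 in replicate 2, a ratio of 17.4 and 15.9. The difference of medians was 2.31 in replicate 1 and 2.14 in replicate 2 on the log2(FPKM + 1) scale, or 2.23 for the means, and the median FPKM was 6.77 times as high. The families overlapped, since the 8 Aux/IAA genes at or below 1 FPKM lay below the ARF median of 1.79. Transcripts had a median length of 1355 bases in the Aux/IAA family and 2998 among ARFs, and at these lengths longer genes of the table had lower FPKM. Relative to the median of genes of like length the difference was 1.27, a comparison chosen after the data were seen. By percentile among genes of like length, the Aux/IAA genes had a median of 72.8 and the ARFs one of 77.7. Genes above the like-length median numbered 19 of 29 in the Aux/IAA family and 10 of 15 among ARFs.

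**Figure D2:**
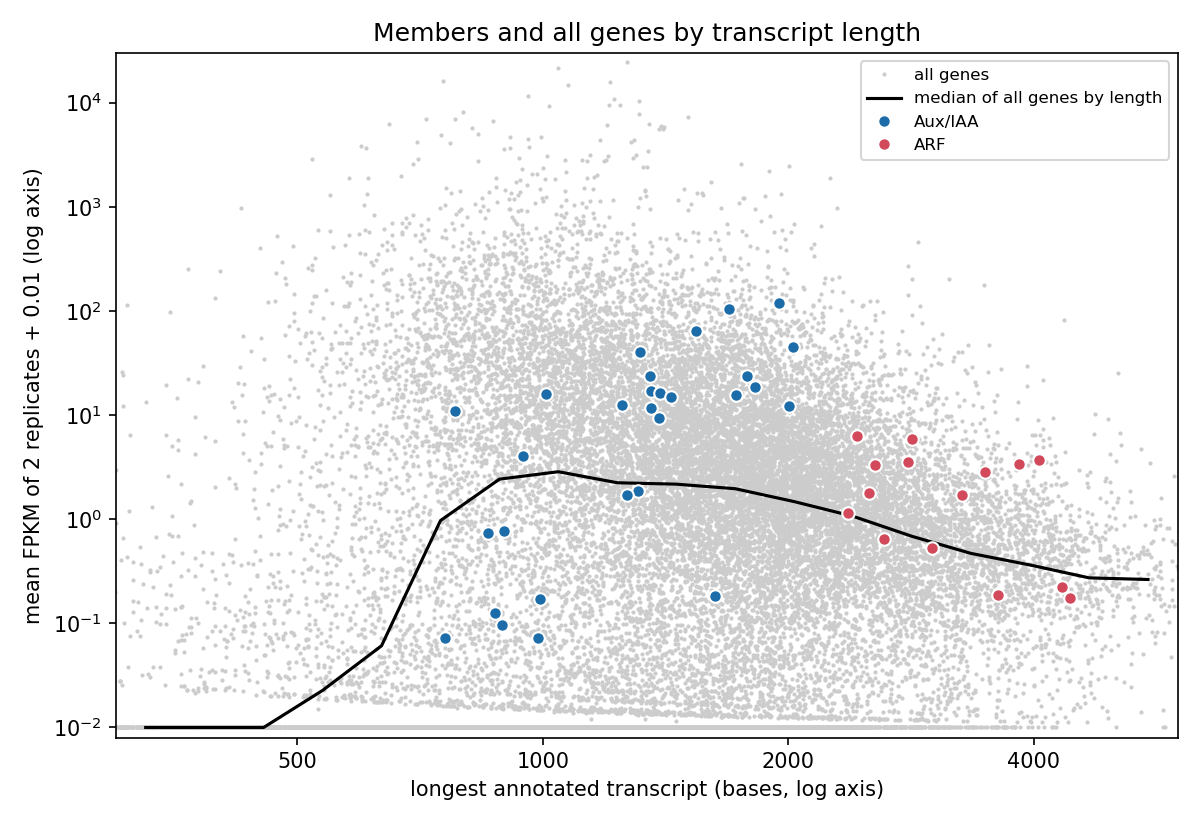
Mean FPKM plus 0.01 against the length of the longest annotated transcript, both on log axes, with all genes in grey, Aux/IAA genes in blue and ARFs in red. The black line is the median of all genes by length, and 19 of 29 Aux/IAA genes and 10 of 15 ARFs lie above the median of genes of like length.

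Activator ARFs fell into a higher and a lower group. ARF6 (AT1G30330) was at 3.69 and 3.75 FPKM, and ARF8 (AT5G37020) was at 3.06 and 2.60. This pair promotes flower maturation and stamen growth. ARF5 (AT1G19850), or MONOPTEROS, which patterns the embryonic root and the veins, was at 0.191 and 0.163 FPKM from 60 and 58 reads. ARF7 (AT5G20730), or NPH4, which acts in phototropism and lateral rooting, was at 0.135 and 0.195 FPKM from 55 and 90 reads. ARF19 (AT1G19220), its closest relative, was at 0.176 and 0.253. The lowest value of the higher group was thus over 10 times the highest of the lower group, whereas neighbours among ARF19, ARF5 and ARF7 had overlapping replicate ranges.

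Against the other ARFs, the activators were lower at the median and overlapped in range. The median was 0.215 FPKM for the 5 activators (0.191 in replicate 1 and 0.253 in replicate 2) and 2.55 for the 10 other ARFs (2.56 and 2.53). The difference of medians on the log2(FPKM + 1) scale was -1.55 in replicate 1 and -1.46 in replicate 2. Above 1 FPKM were 2 of 5 activators and 8 of 10 other ARFs. This difference rested on the 3 low genes, each of which overlaps another annotated gene. Without genes that overlap another one it turned to 0.61 for 2 activators against 9 others. The overlap of ARF7 is 254 bases with a gene on the opposite strand at a mean of 176 FPKM, that of ARF5 is 23 bases and that of ARF19 is 6 bases. The part of these overlaps in the values was not tested. The like-length comparison gave -1.15. Glutamine made up 6.98% to 15.3% of the residues of the activators, lowest in ARF5 and highest in ARF7, and 2.24% to 5.98% of those of the other ARFs. ARF7, with the highest share, had the lowest mean FPKM of these 15 ARFs, but ARF5 was the lowest in replicate 2 (0.163 against 0.195).

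Several ARF transcripts are cut or kept from translation by small RNAs. The microRNA miR160 acts on ARF10, ARF16 and ARF17, miR167 on ARF6 and ARF8, and a trans-acting small RNA from the TAS3 transcript, tasiR-ARF, on ARF2, ARF3 and ARF4. Their sequences are shown because the ARF levels divided along these sites. They are the genome letters of TAIR10.1, with bases 2 to 8 in capitals. The TAS3 stretch is the 21 bases of that gene that pair best with ARF2, ARF3 and ARF4 together, so that its match to these 3 is a product of the search.
miR160a-5p (chr2:16340282-16340302, + strand): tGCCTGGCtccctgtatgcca
miR167a-5p (chr3:8108090-8108110, + strand): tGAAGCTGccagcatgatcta
TAS3 stretch (chr3:5862205-5862225, + strand): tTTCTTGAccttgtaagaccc

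The best windows in these 8 transcripts had 1 to 4 mismatches over 21 bases, counting a G-U pair as a mismatch. The other 37 pairs of a small RNA and an ARF had 7 to 9. Capitals mark the bases that pair with the small RNA, and all 8 windows lie within exons of the coding sequence.
ARF10 for miR160 (chr2:12115741-12115761, + strand): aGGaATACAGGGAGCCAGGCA
ARF16 for miR160 (chr4:14704141-14704161, - strand): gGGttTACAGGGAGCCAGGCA
ARF17 for miR160 (chr1:29274189-29274209, + strand): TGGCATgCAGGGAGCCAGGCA
ARF6 for miR167 (chr1:10686478-10686498, - strand): gAGATCAgGCTGGCAGCTTgt
ARF8 for miR167 (chr5:14633841-14633861, + strand): TAGATCAgGCTGGCAGCTTgt
ARF2 for tasiR-ARF (chr5:24913262-24913282, + strand): GGGTCTTgCAAGGTCAAGAAt
ARF3 for tasiR-ARF (chr2:14325941-14325961, - strand): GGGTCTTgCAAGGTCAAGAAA
ARF4 for tasiR-ARF (chr5:24309507-24309527, - strand): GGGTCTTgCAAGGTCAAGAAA
Among 26670 transcripts of the genome scanned, 3 had as few mismatches to miR160a as ARF16 and 7 had as few to miR167a as ARF6. For the TAS3 stretch, 3 had as few as ARF2. These counts include the ARFs themselves.

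All 8 ARFs with such a site were above 1 FPKM, with means between 1.70 and 6.25, against 2 of the 7 without one. The median was 3.47 FPKM with a site (3.49 in replicate 1 and 3.46 in replicate 2) and 0.524 without (0.491 and 0.557). The difference of medians on the log2(FPKM + 1) scale was 1.59 in replicate 1 and 1.52 in replicate 2, and the ranges overlapped. The exceptions without a site were ARF1, which acts with ARF2 in senescence and flower shedding, at 3.27 and 3.33 FPKM, and ARF18 at 1.17 and 1.13. ARF9 and ARF11, at means of 0.524 and 0.633, and the 3 low activators made up the rest. By target group the medians were 3.53 FPKM for miR160, 3.27 for miR167 and 3.42 for tasiR-ARF. Genes with a site lay at a median percentile of 87.9 among genes of like length, and those without at 42.3. None of the 8 genes with a site overlaps another gene, whereas 4 of the 7 without do. The small RNAs themselves were not measured here, and this split too was described after the levels were known.

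**Figure D3:**
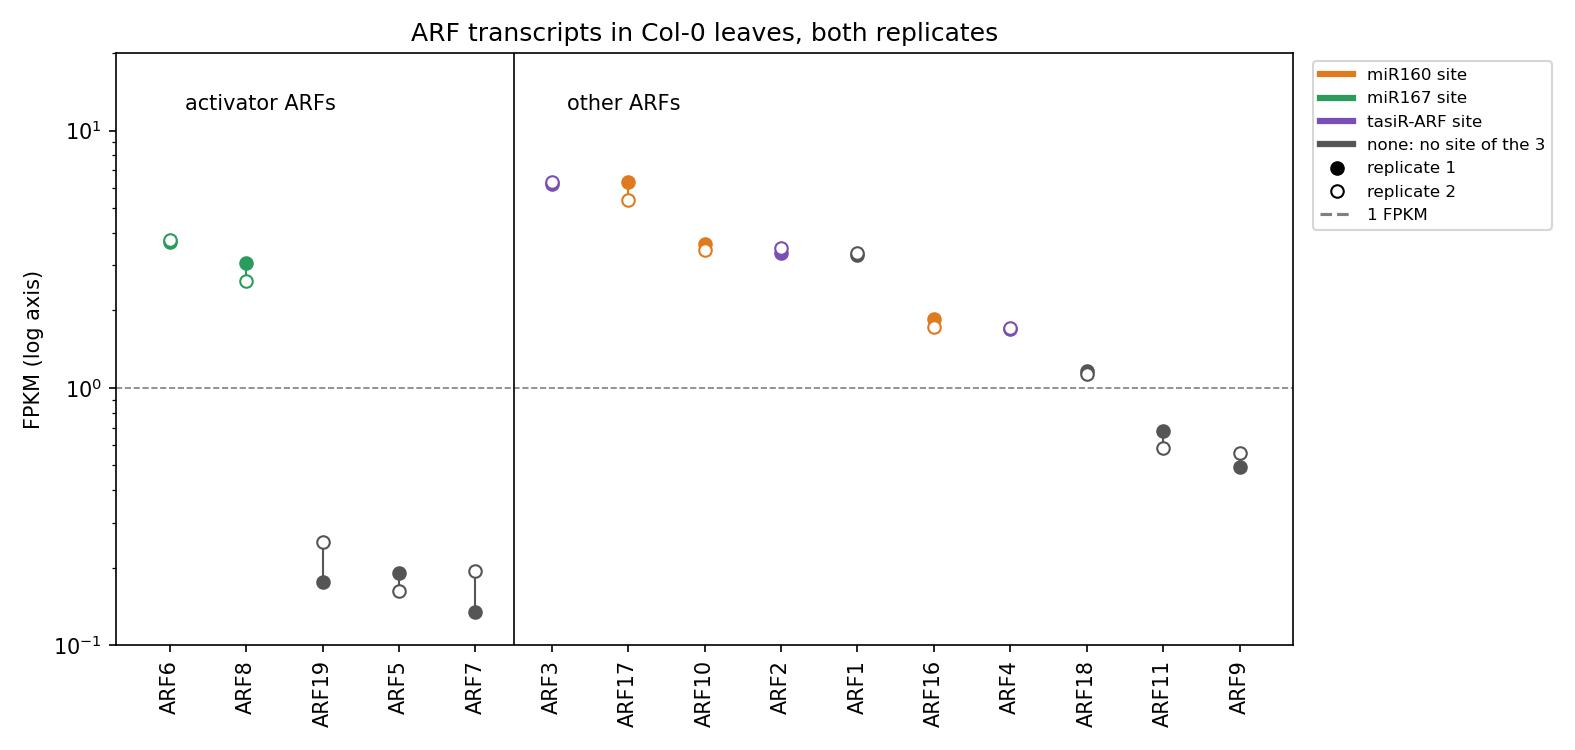
FPKM of each ARF on a log axis, filled points for replicate 1 and open points for replicate 2, with the 5 activator ARFs left of the line and the 10 other ARFs right of it, coloured by the small RNA that targets them. The 8 genes with a site lie above the dashed line at 1 FPKM, and ARF5, ARF7 and ARF19 lie lowest.

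By their means, most pairs of genes that were each other's nearest relative were within 2-fold, and a few Aux/IAA pairs were far apart. Full proteins, translated from 1 model per gene, were aligned within each family. The nearest relative of a gene was the one with the highest identity over the shorter protein, and no tree was built. Genes that were each other's nearest relative formed 10 Aux/IAA pairs and 5 ARF pairs. Their identity over the shorter protein was 51.6% to 86.0% in the Aux/IAA pairs and 47.9% to 73.2% in the ARF pairs. The means of the 2 members differed by under 2-fold in 6 of 10 Aux/IAA pairs and in 4 of 5 ARF pairs, and by over 5-fold in 2 Aux/IAA pairs. The remaining genes are not in these pairs. Their ratios to the nearest relative by this measure ranged from 1.06 (IAA29 and IAA2) to 236 (IAA27 over IAA33, a gene with few reads). The identity of these 2 pairs was low, at 38.5% and 32.2%. The share within 2-fold was not computed for pairs that are not nearest relatives. Of the pairs under 2-fold, IAA18 and IAA26 lay at the cutoff, with a ratio of 1.98 on the means and 2.004 in replicate 2.

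Of the reciprocal pairs, IAA19 and IAA6 differed most. IAA19, or MASSUGU2, which acts in hypocotyl bending, was at 16.1 and 15.9 FPKM, and IAA6 at 0.661 and 0.800, a ratio of means of 21.9 at 64.0% identity. IAA30 exceeded IAA20 12.2-fold at 84.9% identity, although both lack the degron core. IAA7 was at 65.9 and 63.9 FPKM, and IAA14, or SOLITARY-ROOT, a repressor of lateral roots, was at 16.3 and 14.6, although their proteins were the most alike of all at 86.0%. Near levels were found for IAA9 and IAA8 (ratio 1.13), IAA13 and IAA12 (1.13) and IAA10 and IAA11 (1.02 in replicate 1 and 1.19 in replicate 2). The order of IAA32 and IAA34 turned between the replicates, with IAA32 1.73-fold higher in replicate 1 and IAA34 1.72-fold higher in replicate 2, and the ratio of their means was 1.06. Among ARFs the widest ratio was 3.67, for ARF3 over ARF4. The other pairs were ARF10 and ARF16 (1.97), ARF18 and ARF11 (1.81), ARF6 and ARF8 (1.31) and ARF19 and ARF7 (1.30). The assignment of reads matching both members of a pair is not stated in the methods or labels.

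**Figure D4:**
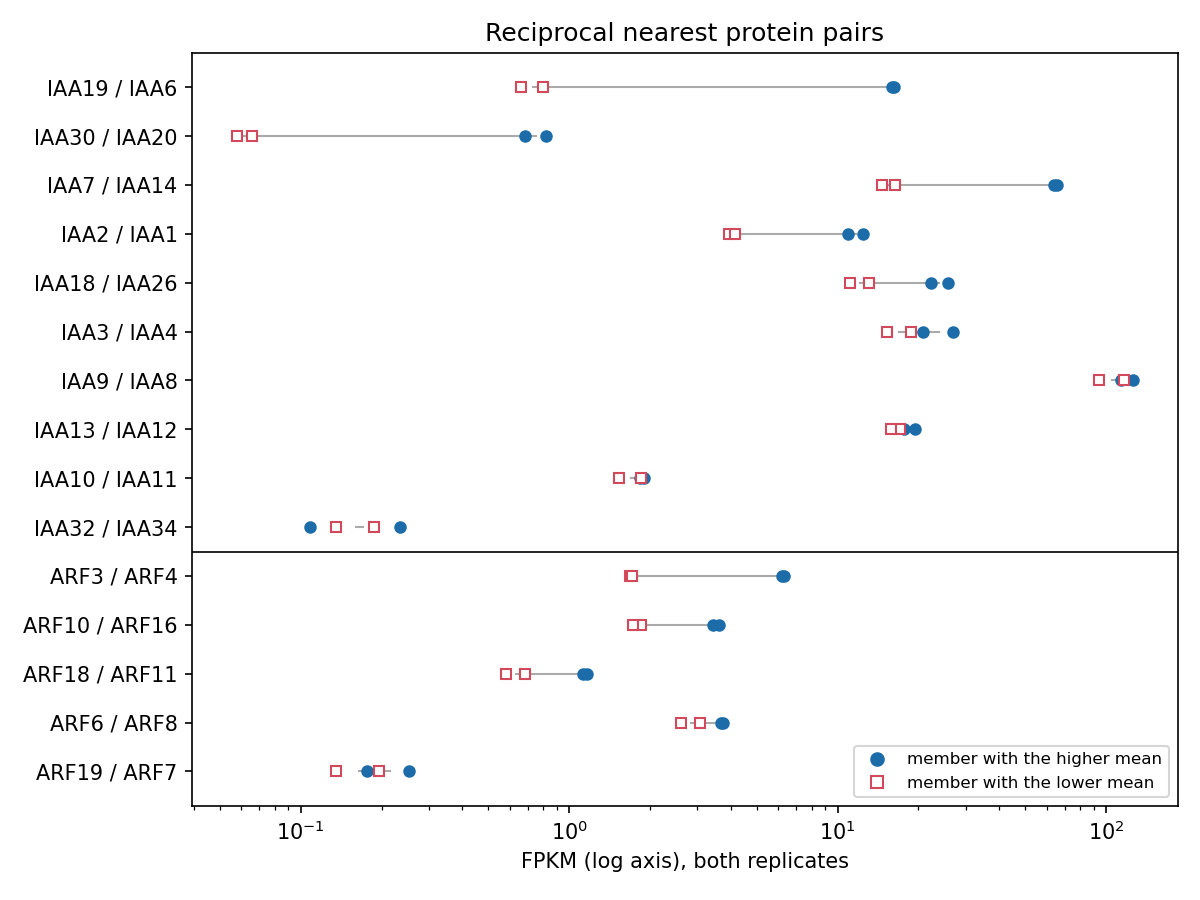
FPKM of both replicates on a log axis for the 15 pairs of nearest relatives, Aux/IAA pairs above the line and ARF pairs below it, with blue circles for the member with the higher mean and red squares for the other. The gaps are widest for IAA19 over IAA6 (21.9-fold) and IAA30 over IAA20 (12.2-fold).

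In 3 places, Aux/IAA genes were neighbours that point away from each other with no protein-coding gene between. IAA3 and IAA17 lie 6388 bases apart on chromosome 1, IAA2 and IAA7 lie 12510 bases apart on chromosome 3, and IAA14 and IAA1 lie 10732 bases apart on chromosome 4 (TAIR10.1). The second gene of the chromosome 1 and chromosome 3 pairs was the higher. IAA17 averaged 39.9 ± 2.79 FPKM and IAA3 23.8 ± 4.23, and IAA7 averaged 64.9 ± 1.43 and IAA2 11.7 ± 1.05. On chromosome 4, IAA14 averaged 15.4 ± 1.22 FPKM and IAA1 4.04 ± 0.160 (SD, n = 2 each).

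The DNA element that ARFs bind, searched as TGTCTC or TGTCGG on both strands between 250 bases before and 50 bases after the annotated gene start, was found in 16 of 29 Aux/IAA genes (55.2%) and 3 of 15 ARFs. The share among 26714 genes of the table with coordinates was 18.6%. TGTCTC alone was found in 12 Aux/IAA genes (41.4%) and in 1 ARF, against 14.1% of all genes. A match is a string in the sequence, not a measured binding site. At least 2 copies of TGTCTC were found in IAA19, IAA34 and ARF3, that is in 2 of 29 Aux/IAA genes and 1 of 15 ARFs, against 1.39% of all genes. IAA19 held 3 copies, the highest number among the members, which begin at -184, -145 and -128 from the start. The 30 bases with its 2 nearest copies are shown with the motifs in capitals.
IAA19 promoter (chr3:5263853-5263882, + strand): accTGTCTCtgcccccacttTGTCTCccca
The Aux/IAA genes with either string had a median of 6.75 FPKM (9 of 16 above 1), and those without had 15.4 (12 of 13 above 1). Of the genes without the degron core, IAA20, IAA30, IAA31, IAA32 and IAA34 had a string and IAA33 did not. This split thus shares its low genes with the split by degron core, and the contributions of string and core were not separated. IAA9, the highest gene, had neither string in this window. IAA8 had 1 copy.

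The rest of the pathway was described through lists written with earlier results of these data known. Above 1 FPKM were 31 of the 44 Aux/IAA and ARF genes, 17 of 51 other pathway genes and 47.7% of all genes. The 51 include ARF12 to ARF15 and ARF20 to ARF23, 8 genes that the name rule leaves out, with 0 above 1. The ARF shares given above cover only the 15 ARFs of the rule. Auxin receptors had 5 of 6 genes above 1 and a median of 12.3 FPKM, close to the Aux/IAA median. Receptor transcripts, of 2234 to 2736 bases, were longer than any in the Aux/IAA family, so the medians are not matched for length. TIR1 was at 23.9 and 24.3 FPKM, AFB2 at 18.9 and 18.6 and AFB5 at 15.2 and 14.3. All 5 genes of the ubiquitin ligase and its activation were above 1. Among them ASK1, its adaptor subunit, was at 773 and 681 FPKM. TOPLESS and its 4 relatives were all below 1, between 0.147 and 0.871 FPKM. Their transcripts lie within the length range of the ARFs, where 36.7% of genes were above 1 FPKM.

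Among genes that make auxin, 3 of 13 were above 1 FPKM, led by TAR2 at 1.86 and 1.85, YUC6 at 1.41 and 1.54 and TAA1 at 1.19 and 1.21. Among those that inactivate it, 2 of 9 were, DAO1 at 3.99 and 3.16 and GH3.6 at 2.07 and 1.84. Of 5 auxin-responsive targets, SAUR15 was at 41.6 and 33.7 FPKM and SAUR19 at 15.1 and 10.8, whereas LBD18 was at 0.348 and 0.521 and LBD29 was listed at 0 in both replicates. Of ARF12 to ARF15 and ARF20 to ARF23, a group known from seeds, 7 of 8 were listed at 0 in both replicates, and ARF21 had a mean of 0.00520. No Aux/IAA or ARF gene of the 44 was listed at 0.

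**Figure D5:**
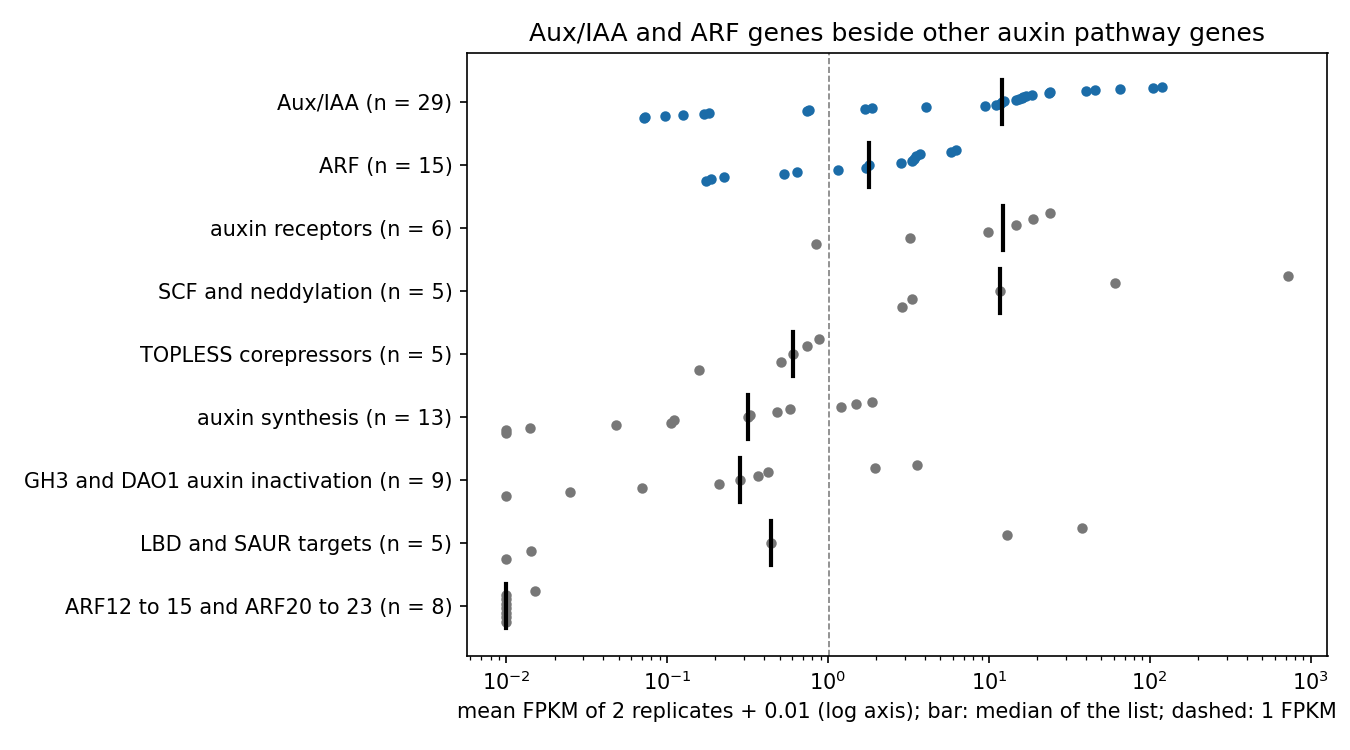
Mean FPKM plus 0.01 of each gene on a log axis, with the Aux/IAA and ARF families in blue above the other auxin pathway lists in grey, and a black bar at each median. The Aux/IAA median of 12.1 FPKM lies near that of the receptors (12.3), and both family medians lie above that of the corepressors (0.596). Values are not set against genes of like length, and receptor and corepressor transcripts are longer than those of the Aux/IAA family.

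Replicates differed little. On the FPKM + 1 scale, 0 of 44 members differed by at least 1.5-fold, against 0.383% of all genes. The largest log2 ratios of replicate 2 over replicate 1 were 0.12, for IAA6, and -0.35, for IAA3. With 0.1 added in place of 1, IAA15, IAA31 and IAA32 passed 1.5-fold (3.12% of all genes did), and with 0.01 IAA33 did as well (11.6%). All 4 are genes with few reads. Of the 21 Aux/IAA genes above 1 FPKM, 20 were higher in replicate 1, where 68.3% of all genes above 1 FPKM were. The members' median log2 ratio was -0.14 in the Aux/IAA family and 0.01 in the ARF family, beside -0.07 for all genes above 1 FPKM. The order of levels was nearly the same in both replicates, with Spearman's rho of 0.989 across 29 Aux/IAA genes and 0.982 across 15 ARFs, where genes are not independent replicates and the values share 2 libraries.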

How the data were processed

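RNA-seq of 2 wild-type Col-0 leaf replicates was used. The authors aligned paired-end reads to TAIR10 with TopHat 2.0.9 and computed FPKM with Cufflinks 2.1.1, and they deposited 1 FPKM value per gene and replicate. Cufflinks estimates need not fall on whole reads, whereas the values checked did, so whether the deposited FPKM are its estimates or scaled counts, and whether reads or fragments were counted, is not settled. Which annotation release was counted, whether strand was used and how reads matching more than 1 gene were treated is not stated in the labels or methods. Without strand, overlapping genes cannot be told apart, and 13 of the 44 members overlap another annotated gene.

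The members follow a rule on gene names alone, but that rule and the gene lists were set with earlier results of these data known. Both replicate values were given for the 10 highest Aux/IAA genes, the 5 highest ARFs, the activator ARFs and the largest replicate ratios in each direction, and for up to 3 genes of each other list. Other genes were named after their values were seen.

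Means and SDs were taken over the 2 replicates, and differences used log2(FPKM + 1) with no filter on low values. Read numbers were found as the shortest length, between 150 and 12000 bases, at which both replicates gave whole reads within 0.0002, or the multiple of it nearest an annotated transcript length. Lengths (longest transcript), coordinates and sequences came from the RefSeq annotation of TAIR10.1, which gave a length for 26714 genes (97.5%). Since the file holds no coordinates, none was converted. Protein identity was taken from BLOSUM62 alignments of full proteins with free end gaps, as a share of the shorter protein. The steps were tested on simulated data. Alternatives left out each replicate and changed the pseudocount, threshold, scaling and members used. Python 3.11.15, numpy 2.4.6, pandas 2.3.3, scipy 1.17.1, Biopython and matplotlib 3.10.9 were used.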

Additional observations from a re-analysis of the deposited data

How the results depend on the processing

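With 1 condition, no comparison between conditions was possible and no test was run on differences between gene groups. The depth of the lowest genes (2 to 10 reads a library for IAA20, IAA31 and IAA33) limits their order. No paired analysis was possible because only 1 group of samples has values. Across 62 alternatives that kept both replicates, 31 moved a value by less than the spread between replicates or a count by at most 1.5 times, 30 moved it further and 1 reversed it. Leaving out genes that overlap another gene reversed the activator minus other ARF difference to 0.61. It also gave medians of 3.27 FPKM for activators, 1.79 for other ARFs and 2.83 for all ARFs, a difference of 1.79 between Aux/IAA genes and ARFs, of 3.96 with minus without the degron core and of 1.45 with minus without a small RNA site, and 1 ARF above 1 FPKM without a site. The 3 low activators are among the genes left out. Averaging log2 FPKM over members, with no pseudocount, gave 4.64 FPKM for Aux/IAA genes, 1.37 for ARFs, 0.581 for activators and 2.103 for other ARFs. Averaging log2(FPKM + 1) instead gave differences of 1.63 between families and -0.76 between ARF classes. Only members above 0.1 FPKM gave an Aux/IAA median of 13.6 and a family difference of 2.38. A pseudocount of 0.1 gave differences of 2.69 between families, -3.01 between ARF classes, 6.14 by degron core and 2.52 by small RNA site, and 3 members at least 1.5-fold apart between replicates. A pseudocount of 0.01 gave 2.75, -3.44 and 4 members. Scaling to TPM gave 2.58 for other ARFs. Relative to genes of like length, added after seeing the data like all alternatives on the degron and small RNA splits, the differences were 1.27 between families, -1.15 between ARF classes and 1.70 by small RNA site. At a threshold of 0.5 FPKM, 1 Aux/IAA gene without the core (IAA30) and 4 ARFs without a site passed, and at 2 FPKM 1 such ARF did. Leaving out 1 of 2 replicates moves a mean by less than their SD by construction, so these values are given as ranges only. Without either replicate, the median was 11.1 to 13.1 FPKM for Aux/IAA genes, 1.73 to 1.85 for ARFs, 0.191 to 0.253 for activators and 2.53 to 2.56 for other ARFs. The cause of these shifts was not tested.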
